A study of Rattus norvegicus with 18 samples.

Results

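Lysosomes are acidic organelles in which proteins, lipids and glycans are broken down. Their lumen holds proteases such as the cathepsins and glycosidases such as hexosaminidase, and their limiting membrane is lined by heavily glycosylated proteins of the LAMP and LIMP families. In the brain these genes are expressed by neurons and glia, and phagocytes such as microglia and macrophages are known for a high lysosomal content. The genes described here are 10 rows of the rat count table, chosen by symbol. They are the cysteine cathepsins Ctsb, Ctsl, Ctss and Ctsz, the aspartic protease cathepsin D (Ctsd), the alpha subunit of hexosaminidase (Hexa), progranulin (Grn), the precursor of the granulins, and the membrane proteins Lamp1, Lamp2 and Scarb2, the last of which encodes LIMP-2, the receptor that carries glucocerebrosidase to the lysosome. All 10 were found among the 30735 genes of the files, and all 10 were among the 18444 genes that passed the filter on low counts.

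The libraries were made from cerebral cortex RNA of 18 adult Sprague-Dawley rats, 6 in each of 3 groups, with 1 library per rat. Subarachnoid hemorrhage (SAH) was induced by endovascular perforation, in which a filament pierces an artery at the base of the brain, and cortex was taken 1 day (SAH 1d) or 7 days (SAH 7d) later. Sham surgery followed each step up to the perforation itself. The study's methods name the cortex of the operated side, whereas the labels name both sides, and the sham group is 1 group that serves both SAH times.

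Total counts were between 27270026 and 38271014 per library. Values are given as CPM, a gene's counts relative to the total of its library, with totals scaled by the TMM method so that libraries can be compared, and levels of different genes are compared only as FPKM, which also corrects for transcript length. Markers of neurons, astrocytes and oligodendrocytes were read, which cannot tell cortex from other brain regions, so the tissue label itself was not tested. Summed CPM of 8 neuronal markers was between 2816 and 10578 over the 18 libraries, that of 6 astrocyte markers between 1975 and 4384, and that of 6 oligodendrocyte markers between 8216 and 18595. In each SAH group 1 library stood apart, namely SAH 1d-3 and SAH 7d-5. In SAH 7d-5 the summed level of 7 monocyte and macrophage markers was 8259 CPM, against at most 108 in the sham group, and most of it was Lyz2, the lysozyme of phagocytes, at 8006 CPM. In SAH 1d-3 the same sum was 637 CPM. Results that rest on either library are given with and without it.

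Promoter sequence was looked at because many lysosomal genes carry the E-box CACGTG, which the transcription factors of the MiT/TFE family (TFEB, TFE3, MITF and TFEC) bind. RefSeq promoters of the GRCr8 rat assembly, from 250 bases before to 50 bases after the start, were matched for 8 of the 10 genes, and Ctsb and Hexa had no entry. Both strands were searched, and since the letters read alike on each strand a match counts once. The 6 letters occurred in 2 of the 8 promoters, Ctsd with 2 sites and Lamp1 with 5, against 6.42% of all 33469 promoters. The longer form TCACGTGA, which contains the first, was present in the same 2 promoters and in 0.777% of all. The 10-letter form, which adds a G before and a C after it, was in none of the 8 and in 0.233% of all. The letters GAGGAAGT, a form of the site of PU.1, a transcription factor of myeloid cells, occurred in Ctss alone among the 8 and in 2.42% of all promoters. The windows below are read along the gene's strand, 10 bases on each side of the match, with the match in capitals and its first base counted from the start base as 0. They show both Ctsd sites, the pair of Lamp1 sites nearest to the start, and the Ctss site, which lies on the opposite strand and so reads in reverse complement. The Ctsd windows are at chr1:206968963-206968988 and chr1:206968816-206968841 (minus strand), the Lamp1 windows at chr16:83075113-83075138 and chr16:83075086-83075111 (minus strand), and the Ctss window at chr2:185775369-185775396 (plus strand).
Ctsd, -157: tttcttccccCACGTGactcgcatcc
Ctsd, -10: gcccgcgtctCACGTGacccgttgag
Lamp1, -65: accctcggctCACGTGaccggcgggc
Lamp1, -38: cggcactgttCACGTGacaggcgctg
Ctss, -17: atgaaagttcACTTCCTCgttgtggata
A match describes letters in a window and was not tested as a binding site in these data. Of the 2 genes that hold the E-box, Ctsd rose at SAH 1d and Lamp1 did not pass the test, as the values below show.

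In the sham cortex the most abundant of the 10 transcripts per length was Ctsb, with 225 ± 17.4 FPKM (SD, n = 6). Lamp1 followed at 204 ± 21.3, Ctss at 143 ± 33.1 and Ctsd at 137 ± 12.3 FPKM, and the ranges of neighbours in this order overlapped. Ctsl, at 94.4 ± 11.2 FPKM, lay below every Ctsd value and above every Lamp2 value. Lamp2, at 62.6 ± 7.24, and Scarb2, at 44.5 ± 5.94 FPKM, overlapped each other. Grn (22.1 ± 2.35) and Hexa (21.4 ± 2.39 FPKM) could not be separated by their spread, and Ctsz was the lowest at 11.3 ± 2.39 FPKM, with no overlap with Hexa.

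At SAH 1d Ctsb was again the highest and no longer overlapped the next gene, with 416 ± 103 FPKM (SD, n = 6). Its lowest library was at 346 FPKM and the highest Ctsd library at 257. Ctsz moved from the last place to the seventh, at 57.0 ± 13.6 FPKM, in a range it shared with Lamp2 and Scarb2, and Hexa was last at 28.4 ± 4.72 FPKM. At SAH 7d all neighbours in the order overlapped, and the highest mean was that of Ctsd, 908 ± 1575 FPKM, an SD larger than the mean. Together the 10 genes took 0.175% to 0.196% of all counts in the sham libraries, 0.253% to 0.369% at SAH 1d, and 0.199% to 1.98% at SAH 7d.

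**Figure D1:**
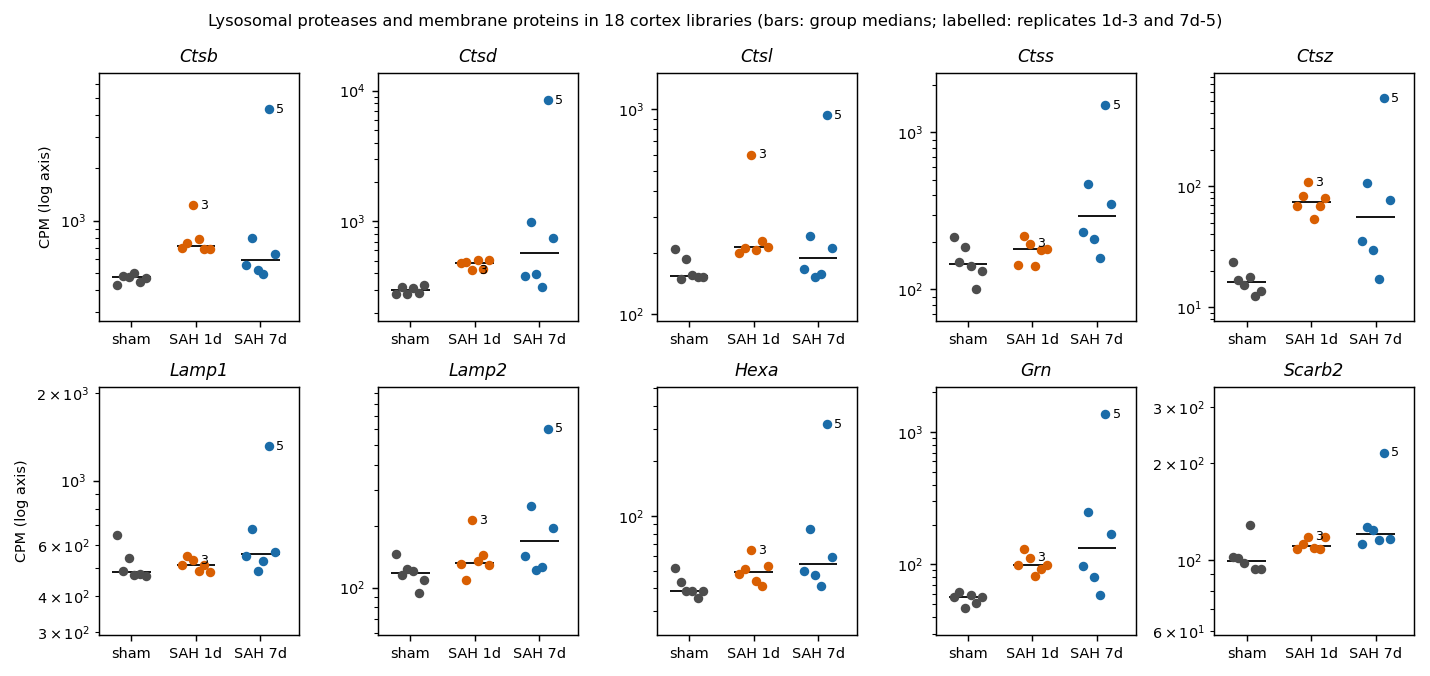
CPM of each of the 10 genes (log axis) in the 6 libraries of each group, with 1 point per rat and a bar at the group median. Ctsb, Ctsd, Ctsz and Grn have all 6 SAH 1d points above all sham points, and the point marked 5 in the SAH 7d group (SAH 7d-5) is the highest of its group in all 10 panels.

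One day after SAH, 4 of the 10 genes rose against sham: the proteases Ctsb, Ctsd and Ctsz, and Grn. Ctsz rose 4.64-fold, and the other 3 rose between 1.58-fold and 1.85-fold. The membrane proteins Lamp1, Lamp2 and Scarb2 and the glycosidase subunit Hexa did not pass the test, nor did Ctsl and Ctss. A gene was called at a Benjamini-Hochberg adjusted p under 0.05 in edgeR's quasi-likelihood F test over all 18444 genes. By that rule 25.4% of all tested genes were called in this comparison, 14.9% as higher. The median log2 fold change was 0.48 over the 10 genes and 0.01 over all genes tested.

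Ctsz encodes cathepsin Z (also called X), a carboxypeptidase of the cysteine cathepsins. Its sham libraries lay between 12.4 and 23.6 CPM with a median of 16.0, and its SAH 1d libraries between 53.1 and 108 CPM with a median of 74.2. Every SAH 1d rat was thus above every sham rat by a wide gap, and SAH 1d-4, the lowest, still had 3.21 times the sham mean. The log2 fold change was 2.22 (SE 0.18, adjusted p = 1.80e-05), with a 95% interval of 1.86 to 2.58. Ctsz was the 1 member that rose by 2-fold or more, as 5.57% of all tested genes did.

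Grn encodes progranulin, a secreted glycoprotein that is also delivered to lysosomes and cut there into granulins. It was between 47.0 and 61.8 CPM in sham, with a median of 56.4, and between 81.4 and 131 CPM at SAH 1d, with a median of 98.6. The groups did not overlap, and the log2 fold change was 0.89 (SE 0.11, adjusted p = 0.000197). Ctsd, the main aspartic protease of lysosomes, went from a range of 277 to 328 CPM with a median of 296 in sham to 420.3 to 506 CPM with a median of 481 at SAH 1d. The groups were again separate, and the log2 fold change was 0.66 with the smallest error of the 10, an SE of 0.07 (adjusted p = 0.000101).

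Ctsb, a cysteine protease with both endopeptidase and peptidyl-dipeptidase activity, was between 429 and 504 CPM in sham (median 474) and between 685 and 1222 CPM at SAH 1d (median 719.6). The highest value came from SAH 1d-3, and the other 5 SAH 1d rats lay between 685 and 783 CPM, above every sham rat. The log2 fold change was 0.78 (SE 0.14, adjusted p = 0.00175) with all libraries and 0.62 (SE 0.06, adjusted p = 2.38e-05) without SAH 1d-3. Groups that do not overlap, with SAH 1d the higher, were found for these 4 members and for 7.89% of all tested genes.

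Ctsl, another cysteine endopeptidase, had a call that changed with the library left out. It had a range of 149 to 209.6 CPM in sham (median 153). At SAH 1d the range was 200.3 to 599.8 CPM (median 213), and the 599.8 was SAH 1d-3, while the other 5 libraries ended at 227 CPM. With all 12 libraries the log2 fold change was 0.73 (SE 0.26, adjusted p = 0.0543), which missed the threshold. Without SAH 1d-3 it was smaller but passed, at 0.34 (SE 0.09, adjusted p = 0.0137), and without SAH 1d-1 the gene was called as well. DESeq2's Wald test called it with all libraries (adjusted p = 0.0234).

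For the 5 other genes the SAH 1d and sham ranges overlapped. Ctss, a cysteine protease that stays active at neutral pH and is expressed in antigen-presenting cells and microglia, was between 101 and 215 CPM in sham and between 141 and 218 CPM at SAH 1d. Its log2 fold change of 0.20 had a 95% interval of -0.12 to 0.52 (adjusted p = 0.394), so a rise of the size seen for Ctsz lay outside the interval. Hexa had a log2 fold change of 0.29 (0.06 to 0.53, adjusted p = 0.0842) and Lamp2 of 0.29 (-0.00 to 0.58, adjusted p = 0.170). Scarb2 had 0.13 (-0.03 to 0.29, adjusted p = 0.260). Hexa was called without sham-1 (adjusted p = 0.0317) and Scarb2 without sham-4 (adjusted p = 0.0402), each in 1 of the 12 fits that left out a library.

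Lamp1, one of the most abundant proteins of the lysosomal membrane, had the smallest difference of the 10. Its range was 469.8 to 648 CPM in sham (median 482) and 482 to 547 CPM at SAH 1d (median 513), the SAH 1d values lying inside the sham range. The log2 fold change of -0.01 had a 95% interval of -0.18 to 0.16 (adjusted p = 0.957). The sign of this value changed with the scaling and with the library left out, within a range of -0.03 to 0.07 over the 12 fits without 1 library, and it was 0.12 on the FPKM scale. On that scale the median of all genes also moved up, by 0.09 with a pseudocount of 1. Limma on log2(FPKM + 1) called 29.0% of all genes and 8 members in this comparison, Hexa, Lamp2, Scarb2 and Ctsl besides the 4 above. An edgeR fit of all 18 libraries, in which the spread of the SAH 7d group enters the error, called 13.3% of all genes and of the members Ctsz only, at an adjusted p of 0.0292.

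Cell type markers moved in the same comparison. Of 10 microglial markers, 4 rose at SAH 1d (C1qa, C1qb and C1qc, which encode the chains of complement C1q, and Itgam, the integrin CD11b) and 1 fell, P2ry12, a receptor of resting microglia, and the summed level was 249.5 to 456 CPM in sham and 492 to 743 CPM at SAH 1d. Of 7 monocyte and macrophage markers 4 rose (Cd14, Cd163, F13a1 and Lyz2), with a summed level of 59.3 to 108 CPM in sham and 105 to 637 CPM at SAH 1d. Of 8 neuronal markers 7 fell, and the sum was 7389 to 10578 CPM in sham and 5727 to 6981 CPM at SAH 1d. Of 3 tested neutrophil markers 2 rose (Csf3r and S100a9), of 6 astrocyte markers 2 fell (Aldh1l1 and Aldoc), and of 5 endothelial markers Cdh5 rose, while no oligodendrocyte or red cell marker was called. The calls of P2ry12, F13a1, Lyz2, S100a9, Gad1, Rbfox3 and Slc17a7 were lost in at least 1 of the fits without a library, S100a9 without SAH 1d-3. No marker of these lists was at 0 in every library of a group, but Elane (sham and SAH 7d) and Mpo (SAH 1d) stayed under 3 counts throughout. The neutrophil sums hold all 8 markers of the list, of which 3 passed the filter on low counts. In SAH 1d-3, where Ctsl and Ctsb were highest, the summed neutrophil markers were 18.9 times the sham mean, at 71.4 CPM. All 7 monocyte and macrophage markers were above their sham means there, between 1.02 times for Lyve1 and 101 times for Cd14. The summed microglial level in that library was 1.66 times the sham mean, with 5 of the 10 markers above their own. The highest of these 10 was Itgam at 10.4 times, and the lowest was P2ry12, at 2.23 CPM against a sham mean of 22.3. In bulk tissue, more cells of a type and more RNA per cell cannot be told apart, and the part of these markers in the members' values was not tested.

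**Figure D2:**
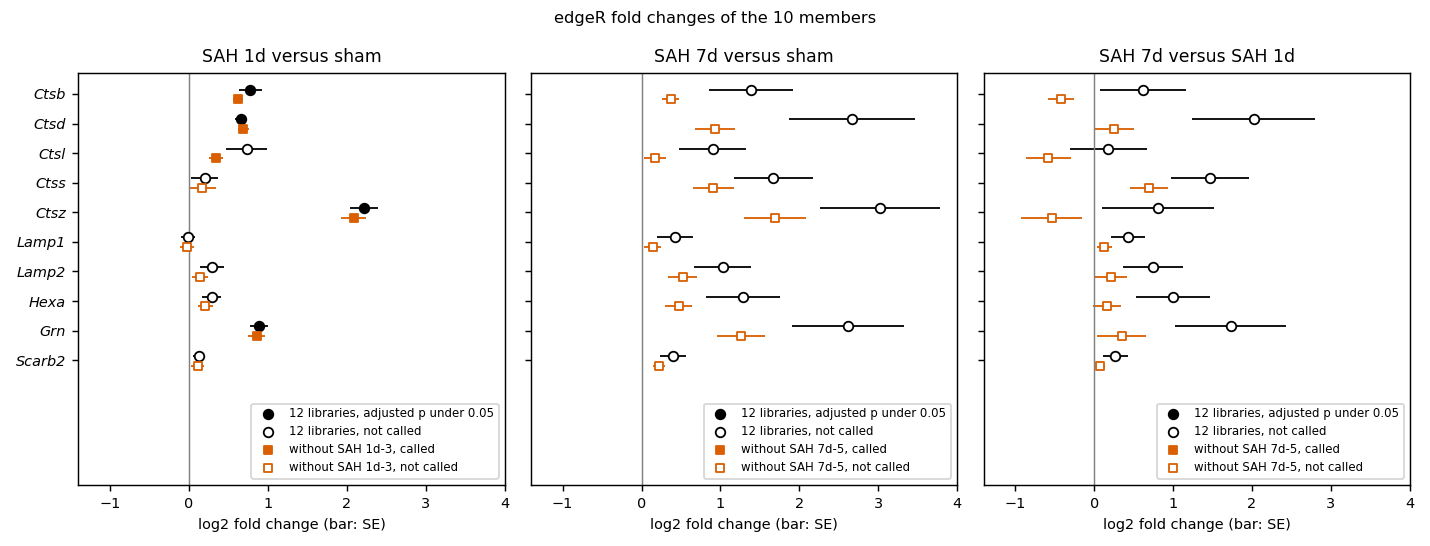
log2 fold change of each of the 10 genes with its SE in the 3 comparisons, from edgeR, with all 12 libraries (circles) and without the library that stood apart (squares). Filled symbols have an adjusted p under 0.05, which 4 genes reach for SAH 1d versus sham with all libraries and 5, Ctsl added, without SAH 1d-3, and none reaches in the comparisons with SAH 7d, where all 10 estimates are lower without SAH 7d-5.

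At SAH 7d the 10 genes had positive fold changes against sham, but none passed the test, and neither did any other gene (0% of all tested genes called). The log2 fold changes were between 0.40 for Scarb2 and 3.02 for Ctsz, with adjusted p-values between 0.214 and 0.372 by edgeR. At an unadjusted p under 0.05 there were 8 of the 10, all except Ctsl and Lamp1, against 15.4% of all tested genes. The median log2 fold change was 1.34 for the 10 genes and -0.00 for all genes. DESeq2's Wald test called 2.56% of all genes and 3 of the 10, Ctsz (adjusted p = 0.00530), Grn (0.0156) and Ctss (0.0256), and gave no adjusted p for Ctsb, Ctsd and Ctsl. Without SAH 7d-5 it gave an adjusted p for these genes as well, and called Ctsz (0.00950), Grn (0.0214) and Ctsb (0.0480). It no longer called Ctss (0.0840), and Ctsd (0.0619) and Ctsl (0.673) did not pass.

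The SAH 7d rats did not form a compact group. SAH 7d-5 was the highest of its group for all 10 genes, SAH 7d-2 was the second for all 10, and SAH 7d-6 was the third for 9. SAH 7d-4 was the lowest for 6, and its values lay between 0.941 times the sham mean (Ctsl) and 1.12 times (Scarb2). SAH 7d-1 and SAH 7d-3 stayed at or below 2.15 times the sham mean for every member. SAH 7d-6 reached 4.61 times and SAH 7d-2 6.42 times, both for Ctsz, while SAH 7d-5 was between 2.10 times for Scarb2 and 32.3 times for Ctsz.

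The excess in SAH 7d-5 over the sham mean was largest for Ctsz, Ctsd and Grn. Ctsd was at 8488 CPM there, 28.5 times the sham mean and 8.67 times the next highest SAH 7d rat, and it was the 12th most abundant transcript of that library by FPKM, against ranks of 433 to 515 in the sham libraries. It alone held 0.857% of the counts of that library. Over the 6 SAH 7d rats Ctsd had a lowest value of 316, a median of 571 and a highest of 8488 CPM, and 5 of the 6 were above every sham rat. The log2 fold change was 2.67 (SE 0.80, adjusted p = 0.215) and fell to 0.93 (SE 0.25, adjusted p = 0.153) without SAH 7d-5.

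Ctsz was at 17.0 CPM in the lowest SAH 7d rat, 55.9 CPM at the median and 534 CPM in the highest. The lowest rat lay within the sham range and the other 5 lay above it, and without SAH 7d-5 the log2 fold change was 1.69 (adjusted p = 0.118). Grn had a lowest value of 58.6, a median of 134 and a highest of 1366 CPM, again with 5 of the 6 above every sham rat. Its log2 fold change of 2.62 (SE 0.71, adjusted p = 0.214) became 1.26 (adjusted p = 0.118) without SAH 7d-5.

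Ctsb was between 496 and 4324 CPM with a median of 599. Without SAH 7d-5 its log2 fold change fell from 1.39 to 0.37 (SE 0.11, adjusted p = 0.182). Ctss had a range of 159 to 1488 CPM with a median of 292 and a log2 fold change of 1.67, which was 0.91 (adjusted p = 0.168) without SAH 7d-5. Ctss, whose SAH 1d level was close to sham, thus had 4 of 6 SAH 7d rats above every sham rat.

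The membrane proteins and Hexa were also highest in SAH 7d-5. Lamp1 was between 487 and 1313 CPM (median 559.6), and Lamp2 between 122 and 603 CPM (median 169). Scarb2, the steadiest of the 10, was between 112 and 216 CPM (median 119.8), and Hexa between 41.1 and 317 CPM (median 54.7). The top value in each came from that rat, at 2.55 times the sham mean for Lamp1, 5.11 times for Lamp2 and 7.70 times for Hexa. Without it the log2 fold changes were 0.14 for Lamp1, 0.52 for Lamp2, 0.47 for Hexa and 0.22 for Scarb2, and that of Ctsl was 0.17.

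The order SAH 7d-5, SAH 7d-2, SAH 7d-6 was also that of the summed microglial and the summed neutrophil markers. The summed neutrophil markers were at 220.4, 20.9 and 14.4 CPM in these libraries and between 3.32 and 8.49 CPM in the other 3. In SAH 7d-2 and SAH 7d-6 that sum was mostly Csf3r, at 20.4 and 13.8 CPM. In SAH 7d-5 it was mostly Mmp8 (129.8 CPM) and Csf3r (89.2 CPM). Of the 8 neutrophil markers 1 was above its sham mean in SAH 7d-2, 2 in SAH 7d-6 and 6 in SAH 7d-5. Their mean log2 CPM did not keep the order, at 0.01 in SAH 7d-5, -2.35 in SAH 7d-2 and -2.23 in SAH 7d-6. The summed microglial level was 342 to 4937 CPM over the SAH 7d rats, with all 10 markers above their sham mean in each of these 3 libraries. In SAH 7d-5 the microglial markers were between 2.62 times (Tmem119, a gene of resident microglia) and 39.1 times (Itgam) the sham mean. All 7 monocyte and macrophage markers were above theirs, between 1.65 times for Lyve1 and 148 times for Lyz2, and their sum in the other 5 libraries did not follow the members in the same way, with Lyz2 at 211 CPM in SAH 7d-2 and 93.4 CPM in SAH 7d-6. Neuronal markers in SAH 7d-5 were between 0.223 and 0.398 times their sham means, and red cell markers summed to 1.69 CPM there, the lowest of the 18 libraries. Total counts of SAH 7d-5 were within the range of the other libraries. The part of these markers in the members' values was not tested.

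**Figure D3:**
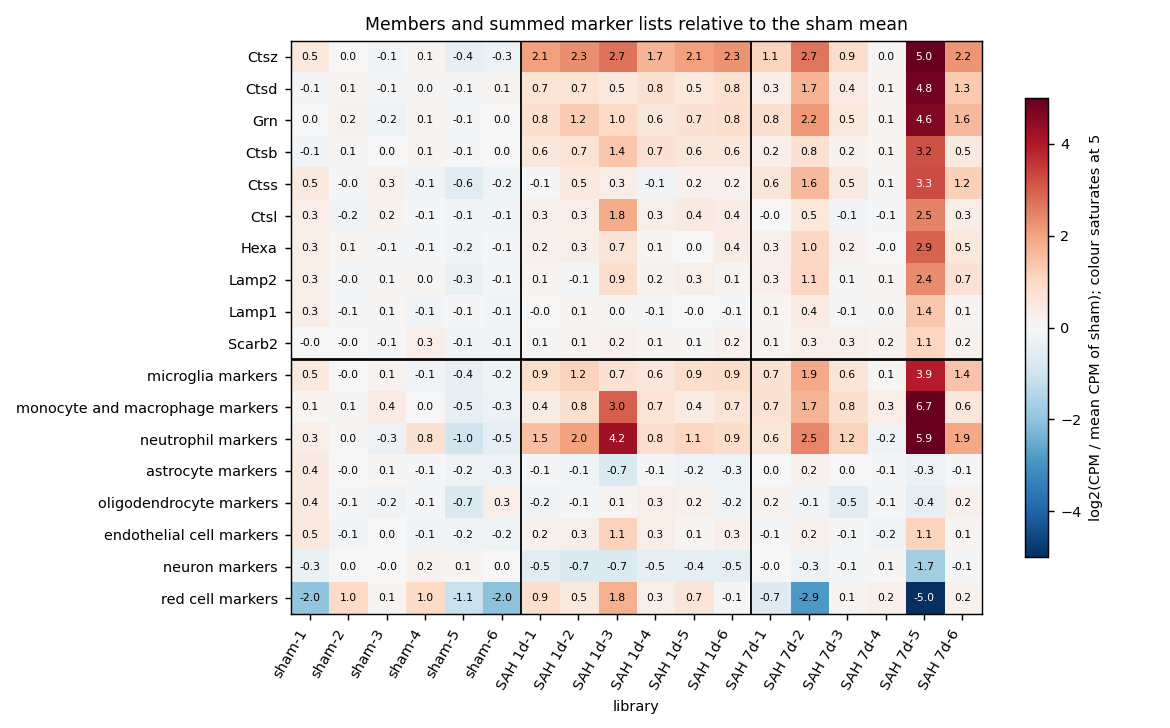
log2 of the CPM over the mean CPM of the sham group for the 10 genes (upper rows) and for the summed CPM of 8 marker lists (lower rows) in each of the 18 libraries, red above and blue below the sham mean. The SAH 7d-5 column is the reddest for all 10 genes and for the microglial, monocyte and macrophage, and neutrophil markers, while its neuronal markers are below the sham mean.

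Between SAH 1d and SAH 7d no member passed the edgeR test, in a comparison in which 1.37% of all tested genes were called. At an unadjusted p under 0.05 there were 3 members, Ctsd, Ctss and Grn, against 14.7% of all tested genes. Ctss came nearest, with a log2 fold change of 1.47 (SE 0.49, adjusted p = 0.169), which was 0.69 (adjusted p = 0.0957) without SAH 7d-5. DESeq2's Wald test called 5.70% of all genes and, of the 10, Ctss, with all libraries (adjusted p = 0.0330) and without SAH 7d-5 (adjusted p = 0.0366). Ctsd had a log2 fold change of 2.02 (SE 0.78, adjusted p = 0.241) and Grn of 1.73 (SE 0.70, adjusted p = 0.262).

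The direction of 3 members in this comparison changed with SAH 7d-5 and with the test. By edgeR, Ctsb, Ctsl and Ctsz had positive log2 fold changes with that library, 0.62, 0.18 and 0.81. Without it they were negative, -0.42, -0.58 and -0.54, with adjusted p-values of 0.147, 0.232 and 0.401. With SAH 7d-5 kept, DESeq2 gave 0.61, 0.17 and 0.80, but limma voom gave -0.27, -0.22 and -0.73. A block for the replicate number gave -0.01, -0.08 and -0.32, and limma on log2(FPKM + 1) gave 0.01, -0.13 and -0.24. Medians were lower at SAH 7d, with Ctsb at 719.6 CPM at SAH 1d and 599 at SAH 7d, and Ctsz at 74.2 and 55.9 CPM. Ctss, by contrast, had medians of 179.7 and 292 CPM, and Ctsd of 481 and 571 CPM. The comparisons of SAH 1d and of SAH 7d with sham share the sham rats, so their values are set side by side here and not compared further.

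Other genes of the lysosome were described from 7 lists with 107 genes, of which 103 were in the files and 99 were tested. At SAH 1d 18 of the 99 rose and 17 fell against sham, where 14.9% of all tested genes were called higher and 10.5% lower, so that the share that rose was near that of all genes. Of these 35 calls 27 held in all 12 fits that left out a library. The 8 that did not were Atp6v0b, Atp6v1b2, Atp6v1c1, Atp6v1h, Galc, Glb1, Igf2r and Mcoln1. The median log2 fold change of the 99 was 0.03, near the 0.01 of all genes. An edgeR fit of all 18 libraries called 1 as higher and 13 as lower, and 13.3% of all tested genes. In neither comparison with SAH 7d was any of the 99 called by edgeR. Under an unadjusted p of 0.05 were 39 of them against sham and 37 against SAH 1d, where 15.4% and 14.7% of all tested genes were. DESeq2 called 12 and 11, all as higher, where it called 2.56% and 5.70% of all genes.

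Among the other lysosomal proteases, 3 of 10 tested rose at SAH 1d and none fell. Lgmn, which encodes legumain, an asparaginyl endopeptidase that processes cathepsins, rose from 95.4 ± 10.5 to 185 ± 25.5 CPM (SD, n = 6, log2 fold change 0.96, adjusted p = 6.66e-05). Its groups did not overlap, as was found with SAH 1d the higher for 7.89% of all tested genes. Ctsc, the dipeptidyl peptidase that activates serine proteases of leukocytes, rose from 8.25 to 25.2 CPM (log2 fold change 1.62, adjusted p = 0.0164). It was called in all 12 edgeR fits that left out a library (adjusted p of up to 0.0393), but DESeq2 gave it no adjusted p. The serine carboxypeptidase Scpep1 rose from 34.0 to 46.4 CPM. Ctsw, a cathepsin of lymphocytes, was near the limit of measurement at 0.244 and 0.147 CPM. Ctse, an aspartic protease related to Ctsd, had 1.12 CPM in sham, 0.990 CPM at SAH 1d and 8.51 ± 9.25 CPM at SAH 7d, with an adjusted p of 0.0573 between the SAH times, and 0.0288 at the lowest in the fits without a library. Its highest values were again SAH 7d-5 (25.5 CPM), SAH 7d-2 (12.4 CPM) and SAH 7d-6 (6.63 CPM).

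Of 32 other hydrolases and cofactors 7 rose (Dnase2, Fuca1, Galc, Glb1, Gusb, Lipa and Rnaset2) and 1 fell, the calls of Galc and Glb1 being lost in most fits without a library. The acid nuclease genes Dnase2 and Rnaset2 had the largest fold changes. Dnase2 rose 2.01-fold from 9.98 CPM (log2 fold change 1.01, adjusted p = 0.000107), and Rnaset2 from 25.5 to 45.6 CPM (0.84, adjusted p = 0.00205). The gene that fell was Arsb, the arylsulfatase that acts on glycosaminoglycans, from 162 ± 13.4 to 117 ± 8.19 CPM (log2 fold change -0.47, adjusted p = 0.000834). Arsb was at 240.2 ± 131 CPM at SAH 7d, with every SAH 7d rat above every SAH 1d rat (adjusted p = 0.0686 between them, and 0.00112 without SAH 7d-5), a separation found for 0.938% of all tested genes.

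Of 21 other membrane and lipid-handling proteins 3 rose and 3 fell. Cd63, a tetraspanin of late endosomes, rose from 61.9 to 198 CPM (log2 fold change 1.68, adjusted p = 0.000309), and Cd68, the LAMP family member of macrophages, from 1.63 to 5.88 CPM (1.86, adjusted p = 0.00376). Slc11a1, the phagosomal metal transporter, rose from 3.21 CPM in sham, with a log2 fold change of 1.65. Lamp5, the LAMP family member of neurons, fell from 242 ± 54.3 to 108 ± 28.1 CPM (log2 fold change -1.17, adjusted p = 0.00100), and Mcoln1, a calcium channel, and Tmem106b fell too, Mcoln1 in 3 of the 12 fits without a library. The LAMP family thus had members in each direction, next to Lamp1 and Lamp2 that did not pass. Cd68 was at 104 CPM on average at SAH 7d, a mean set by 558 CPM in SAH 7d-5, the other 5 rats lying between 1.92 and 33.9 CPM. Npc2, the cholesterol carrier, was at 353 ± 435 CPM at SAH 7d and 96.9 CPM at SAH 1d (adjusted p = 0.143).

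The V-ATPase is the proton pump that acidifies lysosomes. Of its 19 tested subunits 11 fell at SAH 1d and 2 rose, where 10.5% of all tested genes were called lower and 14.9% higher, and the median log2 fold change was -0.32. The number that fell was 7 without any 1 of sham-4, sham-6, SAH 1d-1, SAH 1d-2 or SAH 1d-4, and 4 by limma on log2(FPKM + 1), where the median was -0.20, while the median stayed negative in each of these fits. Atp6v0e2 fell from 179.6 ± 16.7 to 120.2 ± 19.5 CPM (log2 fold change -0.58, adjusted p = 0.00329), and Atp6v0c, a proton-binding ring subunit, from 804 ± 111 to 602 ± 39.3 CPM (-0.42, adjusted p = 0.00781). The subunits that rose were Tcirg1, the a3 isoform known from osteoclasts and macrophages, from 9.45 to 18.7 CPM (0.99, adjusted p = 0.00106), and Atp6v0e1 from 24.2 to 34.3 CPM (0.51, adjusted p = 0.0158). Atp6v0c was at 744 ± 45.0 CPM at SAH 7d, with every SAH 7d rat above every SAH 1d rat (adjusted p = 0.0885). Such a separation was found for 0.938% of all tested genes. The summed neuronal markers were also lower at SAH 1d than in sham, as given above, and their part in these values was not tested.

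Of 10 sorting receptors and enzymes of the mannose 6-phosphate tag, 1 rose and 2 fell at SAH 1d. Igf2r, the large mannose 6-phosphate receptor, rose from 43.1 ± 3.25 to 50.6 ± 2.67 CPM (log2 fold change 0.23, adjusted p = 0.0276). That call was lost without any 1 of sham-2, sham-3, sham-4, sham-6 or SAH 1d-1 (adjusted p of up to 0.0644), with the replicate block, with no filter and in the fit of all 18 libraries. The small receptor M6pr had a log2 fold change of 0.33 (adjusted p = 0.0555). Sort1, which encodes sortilin, a neuronal receptor that takes up progranulin, fell from 811 ± 84.8 to 497 ± 104 CPM (-0.71, adjusted p = 0.00424), without overlap and in the opposite direction to Grn. Vps29, a retromer subunit, fell from 132 to 92.8 CPM (-0.51, adjusted p = 0.00192).

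Among the 4 MiT/TFE factors Tfe3 rose from 12.5 to 16.9 CPM (log2 fold change 0.44, adjusted p = 0.0102) and Tfec, at 0.160 CPM in sham, by 2.84 on the log2 scale (SE 0.56, adjusted p = 0.00371). Tfeb, the factor best known for lysosomal genes, had 9.49 ± 1.80 CPM in sham and 11.7 ± 1.32 CPM at SAH 1d (0.31, adjusted p = 0.103), and Mitf 7.38 and 12.4 CPM (0.75, adjusted p = 0.255). Of the cathepsin inhibitors 3 were tested, and edgeR called none of them in the 3 comparisons with all libraries. Cst3, the secreted cystatin C, was at 1407 ± 261 CPM in sham, 1394 ± 309.6 at SAH 1d and 2883 ± 1275 CPM at SAH 7d (adjusted p = 0.0889 between the SAH times). DESeq2 called Cst3 as higher at SAH 7d, against sham (adjusted p = 0.0107) and against SAH 1d (adjusted p = 0.00647), and edgeR called it between the SAH times without SAH 7d-5 (adjusted p = 0.0449). Cstb had a log2 fold change of 0.42 (adjusted p = 0.110, and 0.0454 without SAH 1d-4) and Cst6 of -0.12 (adjusted p = 0.793) at SAH 1d, and Cst7 did not pass the filter on low counts.

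**Figure D4:**
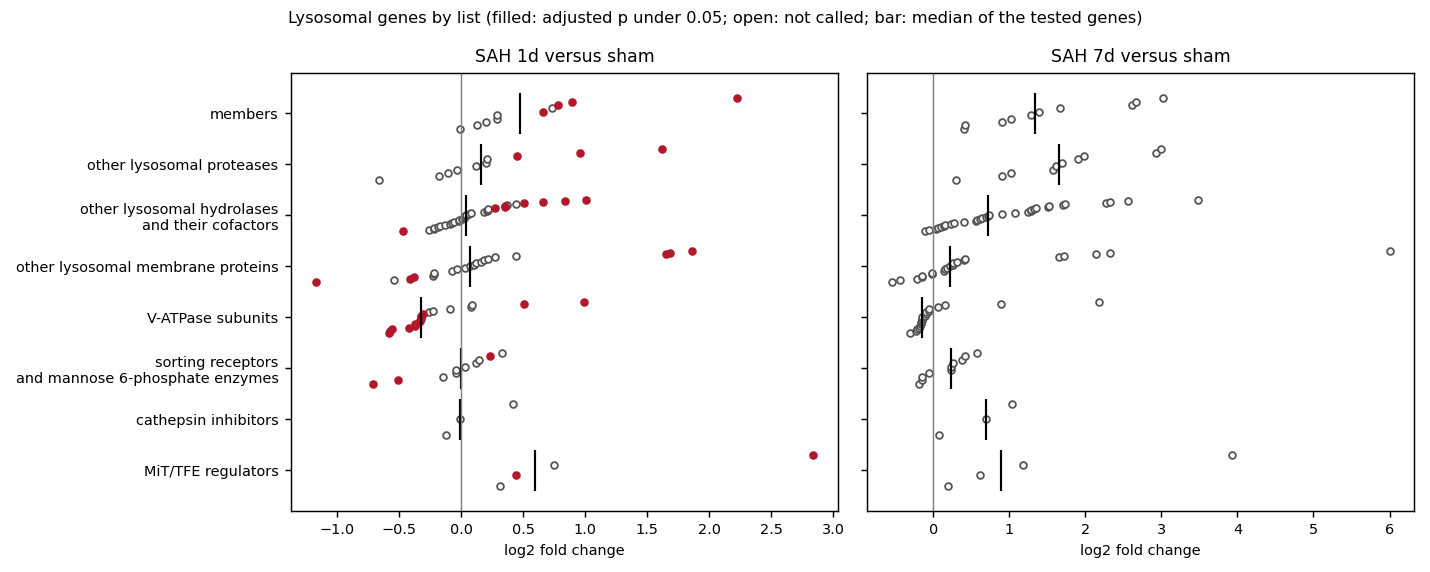
log2 fold changes (edgeR) of the 10 genes and of the tested genes in 7 other lysosomal lists against sham at SAH 1d and SAH 7d, with 1 point per gene, filled where the adjusted p was under 0.05, and a bar at each list's median. At SAH 1d the V-ATPase subunits centre on -0.32 with 11 filled points below 0, while the 10 genes centre on 0.48, and no point is filled at SAH 7d.

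The 10 genes were compared with each other and with 15271 other genes by the shape of their profiles. Each profile was the log2 CPM over the 18 libraries, centred and scaled, and likeness was the root mean squared difference between profiles, where 0 is the same shape. All points share the libraries and their composition, so the values are a description. Ctsd and Grn were the most alike of the members, with a difference of 0.205, and they were each other's nearest member also when both libraries that stood apart were left out (0.271). Ctsz and Lamp1 were the least alike, at 0.756. With both libraries left out that pair was at 1.07, and the least alike were Ctsb and Lamp1, at 1.23.

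The genes nearest to the mean profile of the 10 were Clec4a3 (0.141), a C-type lectin of myeloid cells, Scpep1 (0.165), the carboxypeptidase of the protease list, Colgalt1 (0.184), Unc93b1 (0.186), a chaperone of endosomal Toll-like receptors, and Ugt1a7c (0.190). With these libraries left out the nearest 5 were Fcer1g, Fuca1, Arl11, Havcr2 and Abi3, at 0.272 to 0.299, and none of the first 5 was among them. For single members the nearest gene was Rac2 for Ctsz (0.0990), a GTPase of blood cells and the nearest with or without those libraries. It was Ctsh for Ctss (0.172), Scpep1 for Hexa (0.148), Fuca1 for Grn (0.185), Axl for Lamp2 (0.218) and Pdia3 for Ctsl (0.183). For the others it was LOC100362384 for Ctsb (0.179), LOC100909505 for Ctsd (0.195), Lpcat3 for Lamp1 (0.249) and Plcg2 for Scarb2 (0.336). With those libraries left out, the nearest gene was another one for each member except Ctsz, such as Cst3 for Ctss (0.233), Pld4 for Grn (0.286) and Gpnmb for Ctsb (0.250).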

How the data were processed

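RNA-seq of rat cerebral cortex gave 18 libraries, 6 in each of 3 groups, and the groups were taken from the labels. Per the study's methods, clean reads were aligned to Rnor_6.0 (release 95). The submitters' processing notes name fastp, HISAT2, DESeq2 1.16.1 and the build mm9, which is a mouse build, while the gene identifiers are of the rat. The counting program is not given in the sources used here. The deposited counts are integers for each gene and library, which the authors left without normalization, and it is not known whether both mates of a read pair were counted. The deposited FPKM values were computed by the authors relative to transcript length and to the mapped reads of each library. Replicates were not pooled, and library numbers are those of the column names. Of the 30735 genes, 8685 are loci outside the annotation.

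Counts were tested with edgeR 4.0.16 in R 4.3.3: TMM scaling, filterByExpr over 18 libraries (18444 genes kept, 3100 of them unannotated loci), and the quasi-likelihood F test, two-sided, on the 12 libraries of each comparison, with Benjamini-Hochberg adjustment over all tested genes. SE values of edgeR's log2 fold changes were computed as the size of the estimate divided by the square root of the test's F value. The 95% intervals are the estimate ± 1.96 SE. This multiplier ignores the limited degrees of freedom of 12 libraries, so the intervals are approximate and somewhat narrow. Log2 CPM used a prior count of 2. Alternatives were DESeq2 1.42.0, limma 3.58.1 (voom, and log2(FPKM + 1)), DESeq2 size factors, a fit of all 18 libraries, no filter, a replicate block, and leaving out each library. Fits were tested on simulated data. Tables and figures were made with Python 3.11.15. Precision came from the spread between rats, since the counting error is far smaller at 27270026 to 38271014 counts per library.

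All 10 members are named. From each other lysosomal list, the 2 largest and the smallest fold change for SAH 1d versus sham and the lowest adjusted p between the SAH times are named, with all MiT/TFE factors and cathepsin inhibitors. Further genes of these lists and single markers were named after their values were seen. The members, the lists and the tests were chosen with earlier results of these data known. Promoter sequences are from RefSeq (GRCr8). Genes that share reads with close copies, as cathepsins and LOC entries may, are uncertain.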

Additional observations from a re-analysis of the deposited data

Results flagged for a closer look

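Each member was examined in each group of 6 for a highest or lowest library whose gap to the nearest other relative to the group's range exceeded Dixon's 95% critical value, which chance passes in about 1 of 20 groups. Of 30 groups 14 passed, 1 in sham, 3 at SAH 1d and 10 at SAH 7d, and the 10 genes are not independent of each other since they were measured in the same libraries. At SAH 7d the library was SAH 7d-5 for all 10 genes. Its values were 8488 CPM for Ctsd, 4324 for Ctsb, 1488 for Ctss, 1366 for Grn, 1313 for Lamp1, 937 for Ctsl, 603 for Lamp2, 534 for Ctsz, 317 for Hexa and 216 CPM for Scarb2. At SAH 1d the library was SAH 1d-3, at 1222 CPM for Ctsb, 599.8 for Ctsl and 214 CPM for Lamp2, while Ctsd was at its group's lowest value there. In the sham group it was sham-4 for Scarb2, at 128 CPM.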

How the results depend on the processing

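The number of members called at SAH 7d changed with the choice of test and not with library SAH 7d-5. However, DESeq2 gave no p for Ctsb, Ctsd and Ctsl with that library and gave one for each without it. That library changed the size of the fold changes and which members DESeq2 called against sham. By edgeR it also changed the direction of 3 members between the SAH times, as voom and the replicate block did with that library kept. For SAH 1d versus sham the members called were 1 in an edgeR fit of all 18 libraries and 8 by limma on FPKM with a pseudocount of 1 or of 0.1, against 4, and 4 to 5 with 1 library left out. DESeq2 called 3 members for SAH 7d versus sham, with all libraries and, as an alternative chosen after seeing the data, without SAH 7d-5, where they were Ctsb, Ctsz and Grn. For SAH 7d versus SAH 1d it called 1 each time. By edgeR, leaving out any 1 library gave 0 called members in both comparisons. Of the 99 other lysosomal genes, 14 were called for SAH 1d versus sham in the fit of 18 libraries and 27 to 41 with 1 library left out, against 35. Of all tested genes 13.3% and 19.1% to 28.5% were called in these fits, against 25.4%. For SAH 7d versus sham DESeq2 called 12. For SAH 7d versus SAH 1d 11 were called by DESeq2, 11 in the fit of 18 libraries, 23 by voom, 24 without both SAH 1d-3 and SAH 7d-5, 20 without SAH 7d-5, 1 without SAH 7d-4, and 0 to 20 over all fits without 1 library. The shares of all genes called were, in the same order, 5.70%, 4.22%, 14.7%, 13.6%, 8.38%, 0.819%, and 0.553% to 8.38%. Of all tested genes DESeq2 called 2.56% for SAH 7d versus sham, against 0%. Without SAH 7d-5 edgeR called 8.38% in the comparison of the SAH times, against 1.37%. On the FPKM scale the other lysosomal genes called for SAH 1d versus sham were 25 higher and 9 lower, against 18 and 17. Of 230 values of single members per comparison under other settings, 199, 224 and 207 kept direction and side of the threshold for SAH 1d versus sham, SAH 7d versus sham and SAH 7d versus SAH 1d. DESeq2 values without an adjusted p were counted here as not called. In the comparisons with sham, the fit without both SAH 1d-3 and SAH 7d-5 repeats a fit without 1 library, so its values count again.

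The log2 fold change of Lamp1 for SAH 1d versus sham was 0.03 by voom, 0.00 with the replicate block, 0.12 on the FPKM scale, and between -0.03 and 0.07 with 1 library left out. For SAH 7d versus SAH 1d, Ctsb was at -0.27 by voom, -0.01 with the block, -0.26 without both libraries, -0.41 by DESeq2 without SAH 7d-5 and -0.42 to 0.78 with 1 library left out. Ctsl was at -0.22 by voom, -0.08 with the block, -0.13 on the FPKM scale, -0.19 without both libraries, -0.57 by DESeq2 without SAH 7d-5 and -0.58 to 0.57 with 1 library left out. Ctsz was at -0.73, -0.32, -0.24 (-0.26 with a pseudocount of 0.1), -0.42, -0.53 and -0.54 to 1.04 in the same order. The cause was not tested.

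Replicate numbers are shared by the groups, but same-numbered libraries did not deviate together (correlations of -0.252 to 0.197 over 18 pairs, 2 of which were best with their own number), so they share only a number. With the replicate block 4, 0 and 0 members were called in the 3 comparisons, and 31, 0 and 0 of the other lysosomal genes. Of all tested genes 21.6%, 0% and 0.157% were called. The depth limits genes near 1 CPM, such as Ctsw and Tfec, and none of the 10 members.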
